A study of Drosophila melanogaster with 18 samples.

Results

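A set of 7 genes for the transport of copper and zinc, with the factor that responds to these metals, was followed through 6 groups of Drosophila melanogaster DL1 cells. They were chosen by FlyBase symbol: the copper importers Ctr1A and Ctr1B, the copper chaperone Atox1, the copper exporter ATP7, the zinc exporters ZnT63C and ZnT35C, and the transcription factor MTF-1. All 7 were found among the 17753 genes of the deposited table. DL1 is a cultured fly cell line. Copper-treated groups were cells carrying an IntS6 transgene, cells carrying an IntS12 transgene and parental DL1 cells, each set against the same kind of cell with no copper added, with 3 libraries in each of the 6 groups. The transgenes encode FLAG-tagged subunits of Integrator, a complex that cleaves nascent RNA, and both stand behind the promoter of the metallothionein gene MtnA. The transgene cells were populations kept under puromycin at 5 µg/ml, not single clones, and parental cells had neither transgene nor puromycin. Between a transgene line and parental cells, effects of the transgene and of puromycin therefore cannot be told apart. Copper sulfate was given at 500 µM for the last 24 h of 3 d of growth at 25 °C. Copper was the inducer of the transgenes and is also the metal these genes handle. Within a transgene line the effects of copper and of the transgene therefore cannot be told apart, and parental cells show copper alone.

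Copper is needed by enzymes of respiration and antioxidant defence, and is toxic when free. Flies take it in through Ctr1 proteins, hand it by the chaperone Atox1 to the P-type ATPase ATP7, and ATP7 pumps it into the secretory pathway or out of the cell. MTF-1 is a zinc-finger factor that binds metal response elements and switches on metallothionein genes, whose products bind metals in excess; it is also known to act on Ctr1B when copper is scarce and on ZnT35C when zinc is in excess.

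Libraries were strand-specific and made from total RNA after removal of rRNA. Library totals ran from 13217764 to 18214756 counts, of which genes named as rRNA held 70.2% to 73.4%, which left 3.69 to 4.94 M other counts a library. Levels are CPM, counts put on a common library size, with sizes scaled by the trimmed mean of M-values (TMM). No external standard is named, so every level is relative to the other RNA of its library, and in bulk RNA fewer cells of a type and less RNA per cell cannot be told apart. The series calls its replicates biological without stating whether each was a culture of its own. The p-values therefore speak for the spread among these libraries alone, and that spread may be technical. IntS6 was at 2366 ± 174 CPM in IntS6 cells with copper, 71.4 ± 3.58 CPM in IntS6 cells without it and 36.3 ± 1.45 CPM in parental cells with copper. IntS12 was at 92.9 ± 3.92 CPM in IntS12 cells with copper, 8.44 ± 1.29 CPM in IntS12 cells without it and 3.62 ± 0.317 CPM in parental cells with copper (SD, n = 3). Parental cells without copper gave 26.3 to 29 CPM for IntS6 and 4.5 to 5.52 CPM for IntS12. Both genes were thus called higher than in parental cells in their own lines without copper, by log2 1.35 for IntS6 and 0.75 for IntS12. The IntS12 call was lost in 6 of 12 alternatives. The 10 listed plasmatocyte markers ranged from a mean of 0.414 CPM for NimC1, with Col4a1 at 1.87 and vkg at 1.96 CPM, to 85.9 CPM for srp and 257 CPM for Ppn. Of 8 crystal cell and lamellocyte markers, PPO1, PPO2, atilla and lz had 3, 10, 38 and 49 counts in all 18 libraries together, while PPO3 stood at 6.43, Itgbn at 25.5, cher at 152 and msn at 172 CPM. Of 3 neuron markers, elav stood at 18.6 CPM, and nSyb and Syt1 had 22 and 15 counts in all. The markers of gut copper cells, lab, dve and Vha100-4, had 1, 4 and 17 counts in all 18 libraries together. The summed level of the plasmatocyte list ran from 431 to 549 CPM in IntS6 cells with copper against 498 to 545 CPM without, from 344 to 402 CPM in IntS12 cells with copper against 476 to 571 CPM without, and from 330 to 377 CPM in parental cells with copper against 430 to 553 CPM without. Single plasmatocyte markers went both ways: of the 9 other than NimC1, which passed the filter on low counts only through copper libraries, 4 were higher and 3 lower with copper in IntS6 cells, 2 and 3 in IntS12 cells, and 3 and 3 in parental cells. Among all tested genes 42.6%, 36.8% and 38.6% were called in either direction with copper in IntS6, IntS12 and parental cells. Median log2 fold changes over the 9 were 0.51, -0.04 and 0.16, against -0.007, 0.013 and 0.003 over all tested genes. The summed level of the crystal cell and lamellocyte list ran from 376 to 394 CPM in IntS6 cells with copper against 356 to 406 CPM without, from 301 to 341 CPM in IntS12 cells with copper against 335 to 400 CPM without, and from 289 to 339 CPM in parental cells with copper against 348 to 380 CPM without. Of its 4 tested markers, 2 were higher and 0 lower with copper in IntS6 cells, 2 and 1 in IntS12 cells, and 1 and 1 in parental cells. The same shares of all tested genes stand beside these counts. The part of these markers in the copper results below was not tested.

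Copper raised most of these genes in parental cells. By the edgeR quasi-likelihood test, at an adjusted p under 0.05, 4 of the 5 tested genes other than Ctr1B were higher with copper, and none was lower. ZnT35C had no counts and was not tested. Of all 8174 genes tested, 19.3% were called higher and 38.6% were called in either direction. Ctr1B passed the filter on low counts only through copper libraries, which favours a rise with copper, so its counts are given below as a description. Over the other 5 tested genes the median log2 fold change was 0.37, against 0.003 over all tested genes. In IntS6 cells 4 of the 5 were higher with copper, against 23.2% called higher and 42.6% called in either direction among all tested genes. The median over the 5 was 0.64, against -0.007. In IntS12 cells 3 of the 5 were higher, against 19.2% called higher and 36.8% called in either direction. The median there was 0.42, against 0.013.

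**Figure D1:**
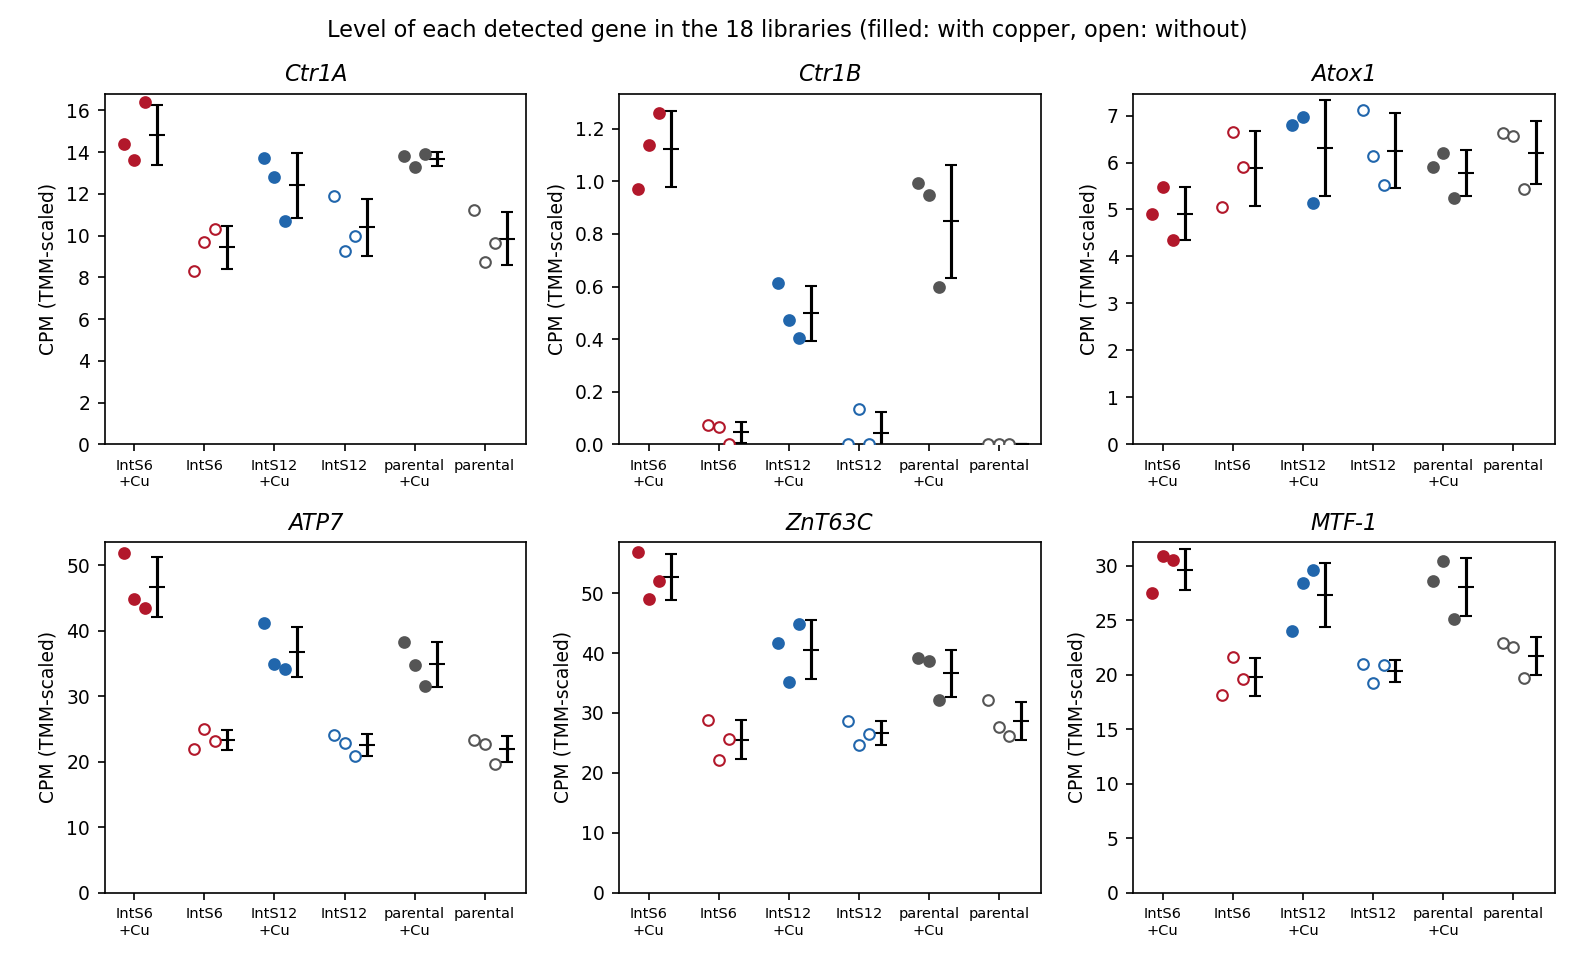
CPM of the 6 genes with counts, a panel for each gene, with 3 libraries a group and the mean ± SD beside them; filled points are libraries with copper and open points libraries without. ATP7, ZnT63C, MTF-1 and Ctr1A stood higher in copper in most kinds of cell, Ctr1B had counts almost only in copper, and Atox1 did not separate.

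The copper importer Ctr1A (FBgn0062413, BDGP6 chromosome X, 6661647 to 6668258, plus strand) gave 14.4, 13.6 and 16.4 CPM in IntS6 cells with copper, against 8.31, 9.71 and 10.3 CPM without. In IntS12 cells it gave 13.7, 12.8 and 10.7 CPM with copper, against 11.9, 9.26 and 10 CPM without. Parental cells gave 13.8, 13.3 and 13.9 CPM with copper, against 11.2, 8.71 and 9.65 CPM without. The copper libraries lay above the others without overlap in IntS6 and parental cells, while in IntS12 cells the groups overlapped. Ctr1A rose 1.56-fold in IntS6 cells (log2 0.64 ± 0.12 SE, edgeR adjusted p = 0.000225) and 1.38-fold in parental cells (0.47 ± 0.12, edgeR adjusted p = 0.00488). In IntS12 cells the log2 fold change was 0.25, with a 95% interval from -0.01 to 0.51 (edgeR adjusted p = 0.121), and it passed the threshold without IntS12 replicate A (edgeR adjusted p = 0.0466).

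Ctr1B, the second copper importer (FBgn0062412, chromosome 3R, 8317612 to 8319205, plus strand), is the gene with the fewest counts among those detected. It had 17, 16 and 18 counts in IntS6 libraries with copper, against 1, 1 and 0 without. IntS12 libraries had 10, 7 and 6 counts with copper, against 0, 2 and 0 without. Parental libraries had 14, 17 and 8 counts with copper, against 0, 0 and 0 without, after a deposited value of 0.5 had been rounded down. The groups did not overlap in any kind of cell. In parental cells 39 counts with copper stand against 0, which is 12.9-fold higher when the absent group is set at 3 counts. This value leaves out the counting error of the 39 and is not the limit of an exact interval. In IntS6 cells, 51 counts stand against 2, a ratio of 24.3 with an exact 95% interval of counting error from 6.39 to 206. In IntS12 cells, 23 stand against 2, a ratio of 11.8 with an interval from 2.91 to 103, and the 2 counts are both from replicate B, without which the cells with no copper had 0 counts.

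The first exon of Ctr1B, from 8317612 to 8317796, lies wholly inside lncRNA:CR45215, a long noncoding RNA on the same strand from 8316984 to 8318006. This shared stretch of 185 bases is 19.4% of the exon bases of Ctr1B. Poxm shares 19% of them on the opposite strand and had 0 counts in all libraries. Summed counts of lncRNA:CR45215 moved with copper too, at 96 with against 1 without in IntS6 cells, 60 against 3 in IntS12 cells and 62 against 2 in parental cells. It too passed the filter only through copper libraries, so these counts are a description. The sources used here do not give the counting options that would place a shared read, and the part of the noncoding RNA in the Ctr1B counts was not tested.

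The chaperone Atox1 (FBgn0052446, chromosome 3L, 21640995 to 21642599, plus strand) was the tested gene not called in any copper comparison. It gave 4.91, 5.48 and 4.34 CPM in IntS6 cells with copper, against 5.06, 6.65 and 5.91 CPM without. IntS12 cells gave 6.8, 6.98 and 5.14 CPM with copper, against 7.11, 6.13 and 5.52 CPM without. Parental cells gave 5.9, 6.2 and 5.25 CPM with copper, against 6.63, 6.56 and 5.44 CPM without. The groups overlapped in each kind of cell. The 95% intervals of its log2 fold change ran from -0.59 to 0.06 in IntS6 cells, from -0.30 to 0.32 in IntS12 cells and from -0.42 to 0.21 in parental cells, so the upper bounds fall short of the ATP7 values below.

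ATP7 (FBgn0030343, chromosome X, 11855022 to 11864754, plus strand), which takes copper from Atox1, gave 51.9, 44.8 and 43.4 CPM in IntS6 cells with copper, against 22, 25 and 23.1 CPM without. IntS12 cells gave 41.1, 34.9 and 34.2 CPM with copper, against 24.1, 22.8 and 20.8 CPM without. Parental cells gave 38.3, 34.7 and 31.5 CPM with copper, against 23.3, 22.7 and 19.6 CPM without. Every copper library lay above every other library of its kind of cell. ATP7 rose 2-fold in IntS6 cells (log2 1.00 ± 0.10, edgeR adjusted p = 3.71e-08), 1.63-fold in IntS12 cells (0.70 ± 0.10, edgeR adjusted p = 7.45e-06) and 1.59-fold in parental cells (0.67 ± 0.10, edgeR adjusted p = 1.48e-05). Per kilobase of exon, the ratio of ATP7 to Atox1 was 1.68 ± 0.22 in IntS6 cells with copper against 0.702 ± 0.0545 without. In parental cells it was 1.06 ± 0.0781 with copper against 0.617 ± 0.0124 without (SD, n = 3). An exact permutation test with 3 libraries against 3 cannot give a two-sided p below 0.1, and each copper comparison of this ratio gave 0.1.

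**Figure D2:**
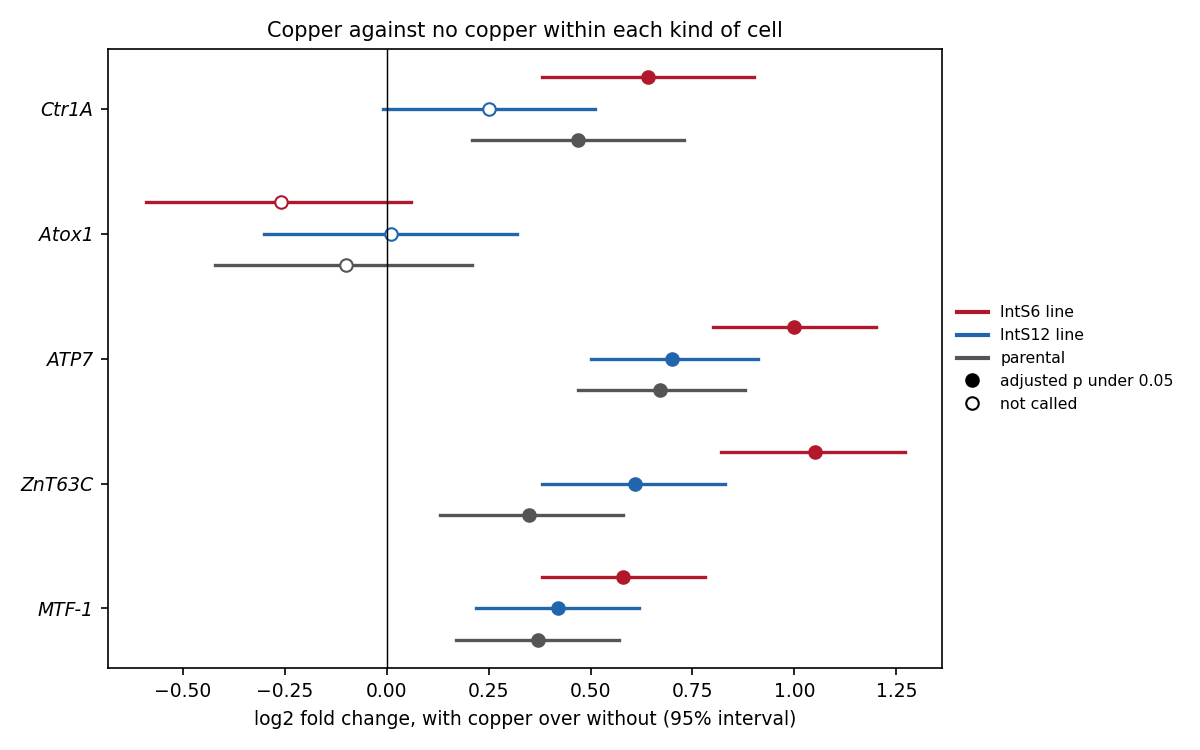
Log2 fold change with copper over without for 5 genes (x axis), with 95% intervals, in IntS6 cells, IntS12 cells and parental cells; filled points passed an adjusted p of 0.05. ATP7, ZnT63C and MTF-1 passed in all 3 kinds of cell and Atox1 in none.

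Of the zinc exporters, ZnT63C (FBgn0035432, chromosome 3L, 3303708 to 3314009, plus strand), which sends zinc out through the plasma membrane, gave 56.8, 49.1 and 52.1 CPM in IntS6 cells with copper, against 28.8, 22.2 and 25.7 CPM without. IntS12 cells gave 41.7, 35.2 and 44.8 CPM with copper, against 28.7, 24.7 and 26.5 CPM without. Parental cells gave 39.1, 38.6 and 32.1 CPM with copper, against 32.2, 27.7 and 26.1 CPM without. The groups stood apart in both transgene lines and just overlapped in parental cells, where the lowest copper library met the highest other library. ZnT63C rose 2.06-fold in IntS6 cells (log2 1.05 ± 0.11, edgeR adjusted p = 8.15e-08) and 1.52-fold in IntS12 cells (0.61 ± 0.11, edgeR adjusted p = 0.000134). The parental rise of 1.28-fold (0.35 ± 0.11, edgeR adjusted p = 0.0131) was lost without copper replicate A (0.0543), without copper replicate B (0.0526) and without replicate C of the cells with no copper (0.0611).

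ZnT35C (FBgn0028516, chromosome 2L, 15228728 to 15247714, minus strand), an exporter known to be induced by zinc, had 0 counts in all 18 libraries. In a single library a count of 0 allows a level of up to 0.168 to 0.225 CPM, depending on the library (3 counts, counting error only). With 0 in all 18 libraries, the bound on a level shared by them is lower and was not computed. A response below that bound could not be detected at this depth.

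MTF-1 (FBgn0040305, chromosome 3L, 9430312 to 9439490, plus strand) gave 27.5, 30.9 and 30.5 CPM in IntS6 cells with copper, against 18.1, 21.6 and 19.6 CPM without. IntS12 cells gave 24, 28.4 and 29.6 CPM with copper, against 21, 19.2 and 20.9 CPM without. Parental cells gave 28.6, 30.4 and 25.1 CPM with copper, against 22.9, 22.5 and 19.7 CPM without. The groups stood apart in all 3 kinds of cell. MTF-1 transcripts rose 1.49-fold in IntS6 cells (log2 0.58 ± 0.10, edgeR adjusted p = 4.54e-05), 1.34-fold in IntS12 cells (0.42 ± 0.10, edgeR adjusted p = 0.00146) and 1.29-fold in parental cells (0.37 ± 0.10, edgeR adjusted p = 0.00398). On the opposite strand, 19.4% of its exon bases are shared with Bet3 and CG42526, and CG42526 moved the other way in parental cells (log2 -0.92, edgeR adjusted p = 0.0272). Its counts were low, at 19, 17 and 8 in parental libraries with copper against 21, 41 and 21 without. IntS6 libraries had 26, 21 and 19 with copper against 30, 20 and 27 without, and IntS12 libraries 19, 15 and 22 against 27, 36 and 35. On the same strand, 10.1% are shared with asRNA:CR45872, which had 8 counts in all libraries together.

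Levels of different genes were set side by side only per kilobase of exon. In IntS6 cells with copper, ZnT63C stood at 16.2 ± 1.19 CPM per kb and ATP7 at 9.05 ± 0.889, followed by MTF-1 at 6.43 ± 0.402, Ctr1A at 6.34 ± 0.617, Atox1 at 5.44 ± 0.631 and Ctr1B at 1.18. In parental cells with copper the order was ZnT63C at 11.2 ± 1.2, ATP7 at 6.76 ± 0.662, Atox1 at 6.4 ± 0.538, MTF-1 at 6.09 ± 0.586, Ctr1A at 5.86 ± 0.147 and Ctr1B at 0.89 ± 0.227 CPM per kb. The 4 genes between ZnT63C and Ctr1B lay within the spread of their neighbours there. In parental cells without copper, ZnT63C stood at 8.81 ± 0.976 and Atox1 at 6.88 ± 0.74, above MTF-1 at 4.71 ± 0.369, ATP7 at 4.24 ± 0.383 and Ctr1A at 4.23 ± 0.547 CPM per kb (SD, n = 3). ATP7 and Ctr1A lay within each other's spread. In parental cells Atox1 thus stood above ATP7 without copper and not with it.

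**Figure D3:**
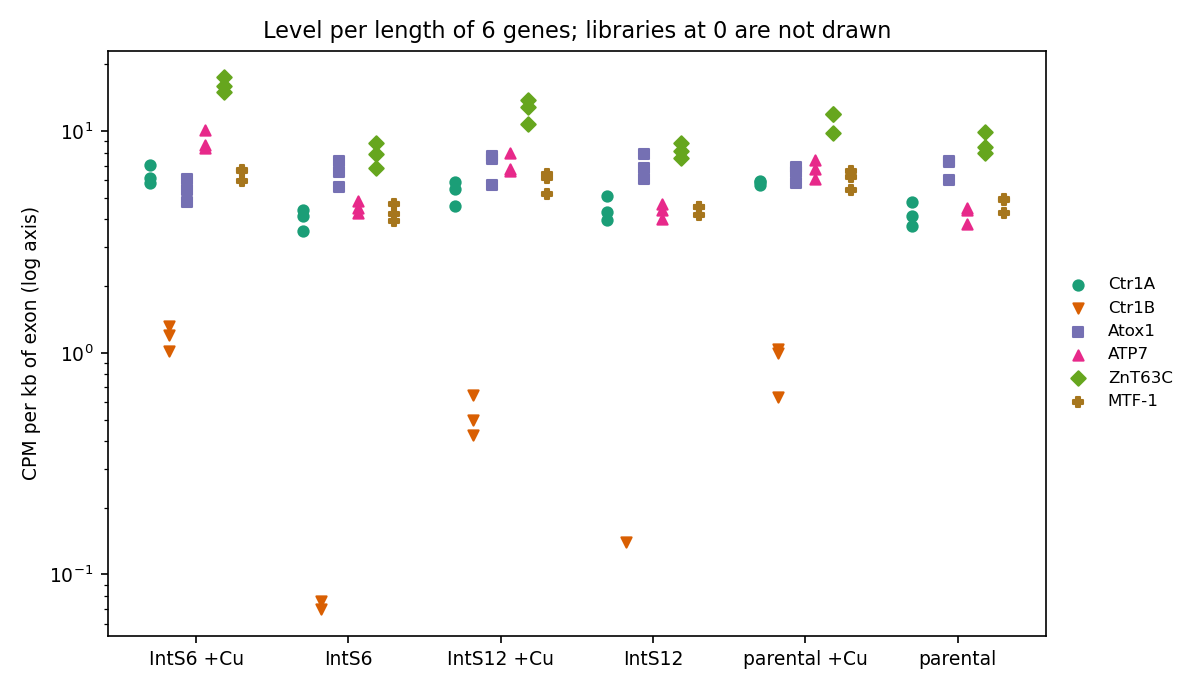
CPM per kb of exon on a log axis for 6 genes in each of the 6 groups, with a point for each library and libraries at 0 not drawn. ZnT63C had the highest mean in every group, at 11.2 ± 1.2 in parental cells with copper, and Ctr1B was at the bottom where it had counts. In replicate B of IntS6 cells without copper, Atox1 lay above ZnT63C, at 7.37 against 6.81.

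The transgene lines were then compared with parental cells under copper. Between IntS6 and parental cells with copper, 8.91% of all tested genes were called in either direction, 7.45% higher and 1.46% lower. Of the set, 2 of the 6 tested genes were higher in IntS6 cells and none was lower. These were ZnT63C, at 52.7 ± 3.88 CPM against 36.6 ± 3.9 CPM, and ATP7, at 46.7 ± 4.59 CPM against 34.8 ± 3.41 CPM (SD, n = 3). In both, every IntS6 library lay above every parental library. In the same comparison 3 of the 4 tested crystal cell and lamellocyte markers were higher, namely Itgbn, msn and cher, and the summed level of that list ran from 376 to 394 CPM in IntS6 cells and from 289 to 339 CPM in parental cells. Of the 9 plasmatocyte markers other than NimC1, 3 were higher, and none of either list was lower. The part of these markers in the result was not tested. ZnT63C was 1.44-fold higher (log2 0.52 ± 0.10, edgeR adjusted p = 0.0018) and ATP7 1.34-fold higher (0.42 ± 0.09, edgeR adjusted p = 0.00451). The other tested genes were not called. Their 95% intervals of the log2 fold change ran from -0.13 to 0.36 for Ctr1A, from -0.12 to 0.27 for MTF-1 and from -0.57 to 0.08 for Atox1, and Ctr1B had 51 counts against 39 (ratio 1.29, exact interval 0.836 to 2.02).

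In IntS12 cells with copper none of the 7 genes was called against parental cells with copper, where 0.0245% of all tested genes were. The edgeR test gave 0 at an unadjusted p under 0.05 and DESeq2 also called 0. The intervals bound a log2 difference for ATP7 between -0.12 and 0.28 and for ZnT63C between -0.07 and 0.37. Ctr1B had 23 counts against 39 (ratio 0.584, exact interval 0.333 to 1). Set against IntS12 cells with copper, IntS6 cells with copper had 2 of the 6 tested genes of the set higher. At an unadjusted p under 0.05 the edgeR test gave 5 of the 6, and the share of all tested genes at that level was not counted. Among those not called, the log2 differences were 0.25 for Ctr1A, 0.11 for MTF-1 and, in the other direction, -0.36 for Atox1. Of all tested genes, 5.8% were called in either direction, 5.06% higher and 0.734% lower. ATP7 was 1.27-fold higher (log2 0.35 ± 0.09, edgeR adjusted p = 0.0276) and ZnT63C 1.3-fold higher (0.38 ± 0.10, edgeR adjusted p = 0.0308). Both calls lay near the threshold. ATP7 lost its call without IntS6 replicate A (log2 0.26, edgeR adjusted p = 0.177), IntS12 replicate B (0.31, 0.111) or IntS12 replicate C (0.29, 0.139). ZnT63C lost its call without IntS6 replicate A (log2 0.32, edgeR adjusted p = 0.147) or C (0.38, 0.0769), or IntS12 replicate A (0.40, 0.068) or B (0.28, 0.163). With library sizes alone both were lost (0.0623 for ATP7 and 0.0643 for ZnT63C). In the same comparison 2 of the 4 tested crystal cell and lamellocyte markers were higher and none lower, with a summed level of that list from 376 to 394 CPM in IntS6 cells and from 301 to 341 CPM in IntS12 cells. Of the 9 plasmatocyte markers other than NimC1, 2 were higher and none lower, and the part of these markers in the result was not tested. Ctr1B libraries did not overlap between the lines, at 51 counts against 23, and were not called (edgeR adjusted p = 0.105).

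Without copper no difference from parental cells was called on these genes. In IntS6 cells none of the 7 was called, against 0.208% of all tested genes (0.184% called higher), and in IntS12 cells none, against 0.0367%. In both comparisons the edgeR test gave 0 at an unadjusted p under 0.05 and DESeq2 called 0. For ZnT63C the log2 fold changes were -0.17 in IntS6 cells and -0.11 in IntS12 cells, and for ATP7 they were 0.10 and 0.05.

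The copper response itself was compared between kinds of cell. For 1 of the 6 tested genes of the set it was larger in IntS6 than in parental cells. Of all tested genes, 1.16% were called in either direction and 1.13% higher. The response of ZnT63C was larger by 0.69 ± 0.15 on the log2 scale (95% interval 0.37 to 1.01, edgeR adjusted p = 0.0234). This is the difference between its log2 changes of 1.05 in IntS6 cells and 0.35 in parental cells. The call was lost with library sizes alone (0.0598). It was also lost without parental copper replicate C (0.0579), parental replicate A with no copper (0.111), IntS6 copper replicate A (0.082), IntS6 replicate B with no copper (0.104) or IntS6 replicate C with no copper (0.0753). The difference lay between 0.59 and 0.78 in all alternatives run. The ATP7 difference of 0.33 (interval 0.04 to 0.62) was not called (edgeR adjusted p = 0.364). For IntS12 cells none of the 7 was called, against 0.0122% of all tested genes. The edgeR test gave 0 at an unadjusted p under 0.05 and DESeq2 called 0, and the ZnT63C difference was 0.25 (interval -0.07 to 0.57). These comparisons share the parental libraries and are not independent.

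**Figure D4:**
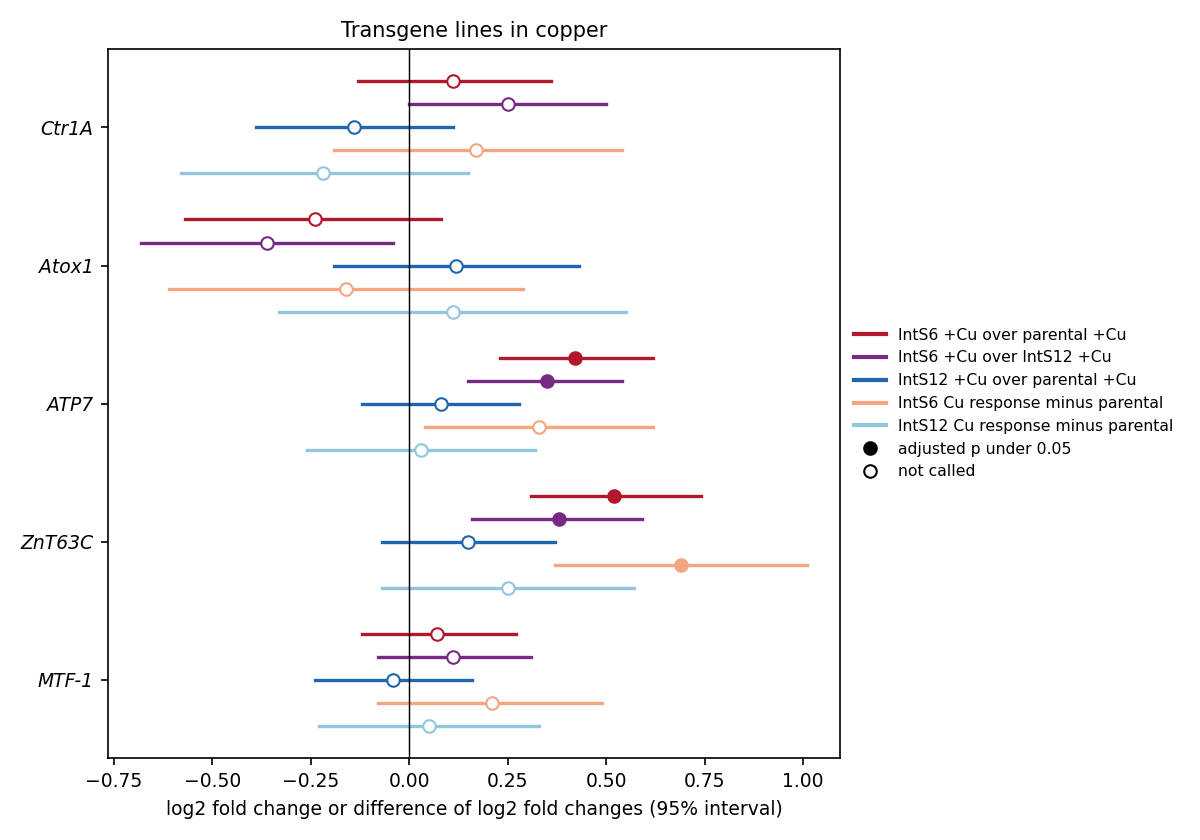
Log2 fold changes between copper-treated lines, and differences between copper responses, for 5 genes with 95% intervals; filled points passed an adjusted p of 0.05. ATP7 and ZnT63C were higher in IntS6 cells than in either other kind of cell under copper, and ZnT63C alone had a called difference in response, of 0.69.

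The metallothioneins are the best known targets of MTF-1. Of the 6 metallothionein genes, MtnB, MtnD and MtnE passed the filter only through copper libraries, so their rise with copper is a description. Summed counts of MtnE, for example, were 1242 with copper against 10 without in IntS6 cells, and 885 against 5 in parental cells. MtnA passed without regard to copper and was called higher in each kind of cell. MtnA stood at 549 ± 59.4 CPM in IntS6 cells with copper against 3.02 ± 0.322 CPM without, and at 319 ± 82.3 CPM in parental cells with copper against 2.85 ± 0.319 CPM without (SD, n = 3). It was 181-fold higher in IntS6 cells, 128-fold in IntS12 cells and 112-fold in parental cells. With copper, 2 of the 4 tested were higher in IntS6 than in parental cells, against 7.45% of all tested genes called higher. These were MtnA 1.72-fold (edgeR adjusted p = 0.000256) and MtnB 2.21-fold (edgeR adjusted p = 0.000502). MtnC had 0 counts and MtnF 3 counts in all libraries together.

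Of 5 other ZnT zinc transporters, 4 were tested. ZnT77C passed the filter only through copper libraries, and its 49 counts in parental cells with copper against 12 without are a description; most of the 12 came from replicate C. Of the other 3, 1 was higher with copper in IntS6 cells, 1 in IntS12 cells and 2 in parental cells, and none was lower, against 23.2%, 19.2% and 19.3% of all tested genes called higher. Medians of the log2 fold change over the 3 were 0.03, 0.16 and 0.26, against -0.007, 0.013 and 0.003 over all tested genes. ZnT41F rose 1.37-fold in parental cells (edgeR adjusted p = 0.00703) and ZnT86D 1.2-fold (edgeR adjusted p = 0.0349), and ZnT49B was not called (log2 0.12, edgeR adjusted p = 0.41). The parental ZnT41F call was lost without copper replicate A (0.0501) or B (0.0518) and with only the groups compared (0.0511). In IntS12 cells that gene's call (edgeR adjusted p = 0.0474) was lost without any one of the 6 libraries (0.0546 to 0.187), with library sizes alone (0.0652), with rRNA genes left out (0.0547) and by DESeq2 (0.0628). In IntS6 cells it was lost without copper replicate B (0.108) or C (0.0546) or replicate B with no copper (0.141). As for ZnT86D, the parental call was lost without copper replicate A (0.0698) or B (0.191), or replicates A (0.0512) or C (0.166) of the cells with no copper. It was also lost with library sizes alone (0.0638), with no low-count filter (0.0727), with only the groups compared (0.118) and by DESeq2 (0.0624). ZnT33D had 0 counts. In IntS6 cells with copper, ZnT49B was lower than in parental cells with copper (log2 -0.40, edgeR adjusted p = 0.0306). That call was lost without parental replicate B (0.141) or IntS6 replicates A (0.0679), B (0.0876) or C (0.0774), with library sizes alone (0.0828), with no low-count filter (0.0528), with only the groups compared (0.11) and by DESeq2 (0.0873), which is 8 of 12 alternatives.

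The ZIP family, which brings zinc and other metals into the cytosol, moved in both directions. Of 10 genes, 6 were tested. With copper, 4 were higher and 1 lower in IntS6 cells, 2 and 1 in IntS12 cells, and 3 and 1 in parental cells. Among all tested genes 42.6%, 36.8% and 38.6% were called in either direction. The medians of the log2 fold change were 0.62, 0.23 and 0.40, against -0.007, 0.013 and 0.003 over all tested genes. Zip99C, the fly member described as moving iron into the secretory pathway, stood at 32.1 ± 1 CPM in IntS6 cells with copper against 5.18 ± 0.473 CPM without. In parental cells it stood at 23.8 ± 2.72 CPM with copper against 5.72 ± 0.879 CPM without (SD, n = 3). Its rise was 6.19-fold in IntS6 cells, 4.44-fold in IntS12 cells and 4.15-fold in parental cells (edgeR adjusted p = 1.33e-11 in parental cells), and with copper it was 1.35-fold higher in IntS6 than in parental cells (edgeR adjusted p = 0.00494). Among the others in parental cells, foi rose 1.91-fold, with copper libraries spread between 73.6 and 154 CPM. Zip48C rose 1.59-fold (edgeR adjusted p = 0.00101), and Zip88E fell by 0.37 on the log2 scale (edgeR adjusted p = 0.00885). Zip102B was called in IntS6 cells (log2 0.28, edgeR adjusted p = 0.0344), and that call was lost without any one of the 6 libraries (0.0538 to 0.114). In the lines the Zip88E call was lost without IntS6 copper replicate B (0.107), IntS6 replicate A with no copper (0.0919), IntS12 copper replicates B (0.0659) or C (0.0788), or IntS12 replicates A (0.0931) or B (0.0618) with no copper. It was also lost with no low-count filter (0.0796 in IntS6 cells, 0.0845 in IntS12 cells), with only the groups compared (0.0519 and 0.0533), by DESeq2 (0.0937 and 0.073) and, in IntS6 cells, with library sizes alone (0.0805). The foi call in IntS12 cells was lost without copper replicate B (0.0565). Zip42C.1 and Zip42C.2 had 0 counts.

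Of 15 matched genes that deliver copper to enzymes or use it, 7 were tested, and in each kind of cell 2 were higher and 1 was lower with copper, with median log2 fold changes of -0.11, 0.06 and 0.10 in IntS6, IntS12 and parental cells. These 3 of 7 stand near the 42.6%, 36.8% and 38.6% of all tested genes called in either direction. Cox17, the mitochondrial copper chaperone, rose 1.67-fold in parental cells (edgeR adjusted p = 0.000302), and Sod1, the copper and zinc superoxide dismutase, rose 1.23-fold (edgeR adjusted p = 0.00586). stw, the laccase that hardens cuticle, fell by 0.61 on the log2 scale (edgeR adjusted p = 1.86e-05). In IntS6 cells the stw call was lost without copper replicates B (0.0928) or C (0.126), or replicates A (0.139) or B (0.0599) with no copper, and the Sod1 call without replicate B with no copper (0.101). The stw call was also lost there with library sizes alone (0.129) and by DESeq2 (0.0536). In IntS12 cells the Sod1 call was lost without copper replicates A (0.0535) or C (0.0606), or replicate B with no copper (0.112), and with library sizes alone (0.0676). Phm was not called (log2 -0.16, edgeR adjusted p = 0.216). None of the 7 was called by edgeR between IntS6 and parental cells with copper, where 8.91% of all tested genes were called in either direction, and 0 of the 7 had an unadjusted p under 0.05 or were called by DESeq2. Ctr1C, the third Ctr1 importer, had 1 count in all libraries together.

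**Figure D5:**
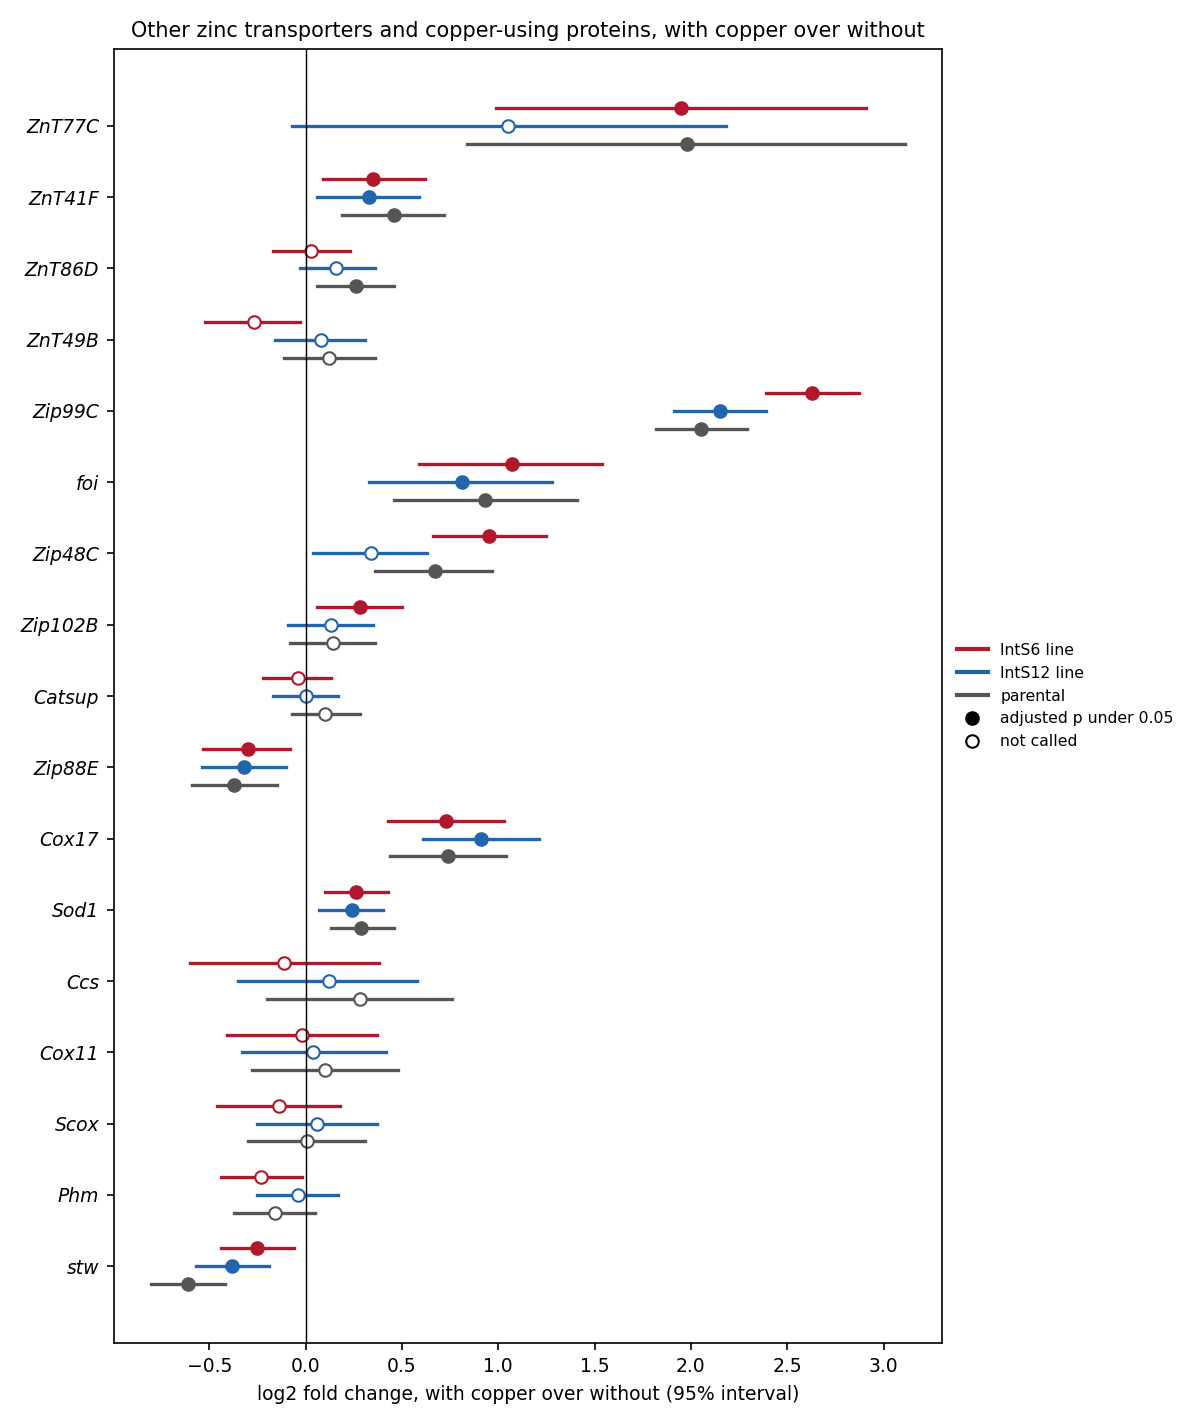
Log2 fold change with copper over without for 17 other zinc transporters and copper-handling genes, with 95% intervals, in IntS6, IntS12 and parental cells; filled points passed an adjusted p of 0.05, and ZnT77C reached the low-count filter only through copper libraries. Zip99C stood highest of the well-counted genes, at 2.05 in parental cells, and stw and Zip88E lay below 0.

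Patterns like those of the 6 detected genes were looked for over the 18 libraries among 5564 genes. The points are 9 libraries with and 9 without copper, so the likeness (Pearson's r of log2 CPM) mainly follows that split. The value after removing group means is given beside it, and neither carries a p. ATP7 was most like Drat (r 0.97, 0.58 within groups), mfas (0.97, 0.65) and pst (0.97, 0.35). ZnT63C was most like mfas (0.97, 0.85), Tsp42Ee (0.97, 0.83) and be (0.97, 0.75). MTF-1 was nearest to mbf1 (0.95, 0.66), RabGGTa (0.95, 0.65) and ALiX (0.95, 0.81). Ctr1A was nearest to MCU (0.89, 0.55), pch2 (0.89, 0.39) and bcn92 (0.88, 0.49), and Ctr1B to Dcp-1 (0.97, 0.46), qm (0.96, 0.51) and CG10413 (0.96, 0.50). Ctr1B had 0 counts in 6 libraries, all without copper, so those points lie at the floor and both of its values are a description only. Atox1 had the lowest likeness, to eIF2A (0.81, 0.77), Egm (0.76, 0.64) and boca (0.74, 0.70), and its values within groups were close to those over all libraries. The named genes were picked from 5564 by their r over all libraries, so the size of either value for Atox1 partly reflects that choice.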

How the data were processed

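The authors deposited estimated counts per gene: 13.4% of values were not whole, among them 27 of the 126 values of these genes. The submitters' processing notes name Trimmomatic 0.39, featureCounts and the builds dm6 and BDGP6. An aligner, an annotation release and a strand setting were not given in the sources used here. Symbols matched 17626 identifiers. Coordinates and exon lengths came from BDGP6.54. Counts were rounded and fitted in R 4.3.3 with edgeR 4.0.16 over all 18 libraries and 6 group means, with TMM factors and the default low-count filter (a level of 0.669 CPM, or 10 counts in a library of median size, in 3 libraries), which kept 8174 of 13350 genes with counts. The call was a Benjamini-Hochberg adjusted p below 0.05 in each of 10 comparisons. The test was checked on simulated data, where it recovered the larger known changes and most, not all, of the smaller ones. There all genes shared the same spread, few were changed, and those were well counted. The check therefore does not cover genes with few counts, such as Ctr1B, or comparisons in which many genes move. Chi-square per degree of freedom between replicates ran from 4.98 to 20, so no pair of libraries differed by less than counting noise. Same-lettered libraries deviated together in parental cells with and without copper (r 0.12, 0.11 and 0.28) and in IntS6 against parental cells with copper (r 0.21, 0.24 and 0.14), a pairing found in the data and not stated by the labels.

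The genes and lists were chosen with earlier results of these data known. Named beside the 7 genes are up to 4 genes of each other list with the smallest p in parental cells, genes with no counts, and the 3 most alike in pattern with at least 5 CPM. MtnF, Ctr1C, Zip102B, the markers and the genes that overlap Ctr1B and MTF-1 were named after their values were seen. Intervals on counts are exact 95% intervals that cover counting error only. The alternatives were other library sizes, rRNA genes left out, no low-count filter, a replicate block, only the groups compared, DESeq2 1.42.0 and leaving out each library.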

Additional observations from a re-analysis of the deposited data

Results flagged for a closer look

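The copper response of ZnT63C differed between IntS6 and parental cells in the test of the difference itself, by 0.69 on the log2 scale: its log2 change was 1.05 in IntS6 cells and 0.35 in parental cells. The call held in 12 of 18 alternatives.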

How the results depend on the processing

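Over 786 recomputed values of the 6 tested genes, 767 kept their side of the threshold. Of these, 741 also kept direction and 26, none called, changed sign. In the rest, 18 lost a call, 1 gained a call and 0 reversed a call. The values include Ctr1B, whose path through the low-count filter favoured a rise with copper, so its kept calls are given no weight here. With only the groups compared, Ctr1B was not tested in parental or IntS12 cells. The number called there was 4 in parental and 3 in IntS12 cells. The number of the 7 genes called between IntS6 and IntS12 cells with copper was 0 with library sizes alone instead of 2, and 0 to 2 when each library was left out. For the difference in copper response between IntS6 and parental cells it was 0 with library sizes alone instead of 1, and 0 to 1 when each library was left out. The cause was not tested. With the replicate block the number called, Ctr1B included, was 5 in parental cells, 5 in IntS6 cells, 4 in IntS12 cells and 2 between IntS6 and parental cells with copper, so the pairing changed no call on these genes.

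Among all tested genes, the number called changed by more than 1.5 times in these cases. Between IntS6 and parental cells with copper it was 454 instead of 728 with only the groups compared. Between IntS12 and parental cells with copper it was 22 instead of 2 with no low-count filter, 6 with the replicate block, 1 with only the groups compared and 5 by DESeq2, and 1 to 7 when each library was left out. Between IntS6 and IntS12 cells with copper it was 307, 309 and 315 instead of 474 without IntS12 replicate A, IntS12 replicate C and IntS6 replicate C. Between IntS6 and parental cells without copper it was 48 instead of 17 with no filter, and between IntS12 and parental cells without copper 32 instead of 3, with 5 when rRNA genes were left out, 6 with the replicate block, 1 with only the groups compared, 8 by DESeq2 and 1 without parental replicate A, IntS12 replicate B or IntS12 replicate C. For the difference in copper response of IntS6 cells it was 238 instead of 95 with no filter, 151 with the replicate block and 62 with only the groups compared, and 43 without parental replicate A with no copper, 48 without IntS6 copper replicate A, 48 without IntS6 replicate B with no copper and 46 without IntS6 replicate C with no copper. For IntS12 cells it was 8 instead of 1 with no filter.

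Depth limits Ctr1B, with at most 18 counts in a library, and ZnT35C, with none.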
